A study of Homo sapiens with 6 samples.

Results

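The m6A readers are the proteins that recognise N6-methyladenosine (m6A), a common internal mark on messenger RNA, or whose binding depends on it. The 10 genes described here were chosen by name, as YTHDF1, YTHDF2, YTHDF3, YTHDC1, YTHDC2, IGF2BP1, IGF2BP2, IGF2BP3, HNRNPA2B1 and ELAVL1, and are 10 of the 61015 annotated genes with a transcript on file. The samples were 6 lncRNA sequencing libraries of MDA-MB-231, a triple-negative cell line from a human breast tumour, made resistant to paclitaxel (PTX), an agent that stabilises microtubules. The BCSC group (breast cancer stem cells, ALDH+, n = 3) and the non-BCSC group (ALDH−, n = 3) were sorted by FACS on aldehyde dehydrogenase activity, and both groups come from the resistant line, so no PTX-sensitive cells enter any comparison. The cell type label is the same for all 6 samples and the groups come from their titles. It is not stated whether the replicates are separate cultures, so p-values measure the spread between these libraries, which may be technical.

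Writers, a methyltransferase complex built on METTL3 and METTL14, place m6A, and the erasers ALKBH5 and FTO remove it. Among the readers, the YTH domain holds the methylated base directly, the cytoplasmic YTHDF proteins are known for RNA decay and translation, and the nuclear YTHDC1 for splicing and export. IGF2BP proteins are known to stabilise marked RNAs, HNRNPA2B1 acts in the nucleus on splicing and miRNA processing, and ELAVL1 (HuR) stabilises RNAs with AU-rich elements. The study follows YTHDF2 as the reader of LINC00115, a long non-coding RNA of these cells, so the question here is whether the reader mRNAs themselves differ between BCSC and non-BCSC.

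Total counts ran from 15925943 to 21215352 in the BCSC libraries and from 9898588 to 12263667 in the non-BCSC libraries, so depth and group cannot be told apart. Where a gene had 0 counts, up to 3 could have been missed, or 0.141 to 0.303 CPM (counts scaled to library size) by library, and such limits cover counting error only. The libraries carried the markers of the line, with VIM, CD44, EGFR, FOSL1, AXL and CAV1 summing to 6589 to 7715 CPM in BCSC and 4144 to 5628 CPM in non-BCSC, of which FOSL1 and CAV1 were called higher in BCSC. Among 6 genes that the line is known to hold low, PGR was called lower in BCSC (mean of 0.753 against 13.9 CPM), although ERBB2 was read at 64.7 ± 8.71 CPM in BCSC and 78.3 ± 11.5 CPM in non-BCSC (SD, n = 3). Olfactory receptor genes, which breast cells are not known to use, took 39.5 to 151 CPM in BCSC and 538 to 1228 CPM in non-BCSC over 407 genes. Markers of blood and fibroblast cells (5 of 6 listed genes matched) summed to 9.07 to 13.3 CPM in BCSC and 28.3 to 38.6 CPM in non-BCSC. None of the 5 was at 0 in all libraries, and 1 was called higher (CD68) and 1 lower (PTPRC). The gene not matched was PECAM1, the only endothelial marker listed, so endothelial cells were not covered. Of the sort's own gene family, ALDH1A3 was read at 29.8 ± 3.98 CPM in BCSC and 17.5 ± 5.74 CPM in non-BCSC (SD, n = 3), and ALDH1A1 at 0.363 CPM or less in BCSC and 2.47 to 3.14 CPM in non-BCSC. The part of these differences in the results below was not tested.

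A few stretches of sequence tell the reader isoforms apart and are shown because counts are split over transcripts that differ by them. They are coding exons in GENCODE on GRCh37, all on the minus strand, printed 5′ to 3′ on the RNA's strand with no part in capitals. The exon that makes isoform B1 of HNRNPA2B1 from A2 lies at chr7:26237451-26237486 and adds 12 residues near the amino end. YTHDC1-201 and YTHDC1-202 differ by the exon at chr4:69198512-69198565, which codes 18 residues. YTHDC1-207 holds the same exon, so it does not tell YTHDC1-207 from YTHDC1-201. IGF2BP2-202 and IGF2BP2-201 differ by the exon at chr3:185390329-185390457, which codes 43 residues.
HNRNPA2B1 B1 exon: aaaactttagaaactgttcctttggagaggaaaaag
YTHDC1 exon of 201: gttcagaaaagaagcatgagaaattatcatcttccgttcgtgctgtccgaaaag
IGF2BP2 exon of 202: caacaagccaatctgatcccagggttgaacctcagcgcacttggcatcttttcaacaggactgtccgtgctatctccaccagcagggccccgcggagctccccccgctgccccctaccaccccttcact

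Set side by side per transcript length, in TPM (counts over length, scaled to a common total), the readers spanned a wide range. HNRNPA2B1 led in both groups, at 1000 ± 22.1 TPM in BCSC and 920 ± 80.0 TPM in non-BCSC (SD, n = 3). Every level sums all transcripts of the gene, and protein-coding ones held a mean of only 9.05% of HNRNPA2B1 counts in BCSC and 16.2% in non-BCSC. YTHDC1 followed at 172 ± 11.2 and 179 ± 17.5 TPM, IGF2BP2 at 140 ± 18.2 and 146 ± 23.3 TPM, YTHDF3 at 139 ± 7.57 and 119 ± 14.9 TPM, and YTHDF2 at 119 ± 18.7 and 102 ± 18.0 TPM. Below them lay YTHDC2, with 60.4, 74.8 and 98.1 TPM in BCSC and 56.7, 67.6 and 81.1 TPM in non-BCSC, ELAVL1 at 65.8 ± 9.29 and 41.4 ± 6.55 TPM, IGF2BP3 at 59.3 ± 11.8 and 57.3 ± 9.12 TPM, and YTHDF1 at 51.8 ± 1.02 and 29.9 ± 5.42 TPM. IGF2BP1 was lowest, between 0 and 0.446 TPM. Among the YTHDF paralogs YTHDF3 was therefore the highest and YTHDF1 the lowest per length in both groups. In BCSC, the ranges of neighbours overlapped from YTHDC1 through IGF2BP2 to YTHDF3 and from YTHDF2 down to YTHDF1. In non-BCSC they overlapped from YTHDC1 down to YTHDF2 and between YTHDC2 and IGF2BP3, while IGF2BP3, ELAVL1 and YTHDF1 were separate. TPM served to compare genes, and the groups were compared in CPM. For YTHDC1, IGF2BP2, IGF2BP3 and HNRNPA2B1 the group means differed in opposite directions in TPM and CPM.

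Between the groups, no reader passed the criterion of the study's RNA-seq methods, an adjusted p under 0.05 with a log2 fold change beyond 1. For lncRNAs in BCSC against non-BCSC, the study's results give a fold change above 2 with P under 0.05. Counts were summed per gene and tested in edgeR (quasi-likelihood test, Benjamini-Hochberg adjustment over 20442 genes). Of the 10 readers 9 were tested, since IGF2BP1 did not pass the filter on low counts, and the other 9 were well covered in both groups. Called higher were 0 of the 9, where 8.85% of all genes tested were, and called lower were 0, where 11.3% of all genes were. At an unadjusted p under 0.05 there were 2, of which 0 also passed the minimum fold, and DESeq2 also called 0. By adjusted p alone 2 were higher, YTHDF1 and ELAVL1, against 15.3% of all genes, and 0 were lower, against 14.6%. The 3 BCSC values lay above all 3 non-BCSC values for 3 readers (YTHDF1, YTHDF3 and ELAVL1), which 24.2% of all genes showed, and below them for 0 of the 9, which 27.9% of all genes showed. The median log2 fold change was 0.19 over the 9 readers and −0.05 over all genes, and 0.18 over the 5661 genes that averaged 500 counts or more. Of those 5661 genes 10.6% were called higher and 2.05% lower, and by adjusted p alone 30.0% were higher and 11.9% lower.

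**Figure D1:**
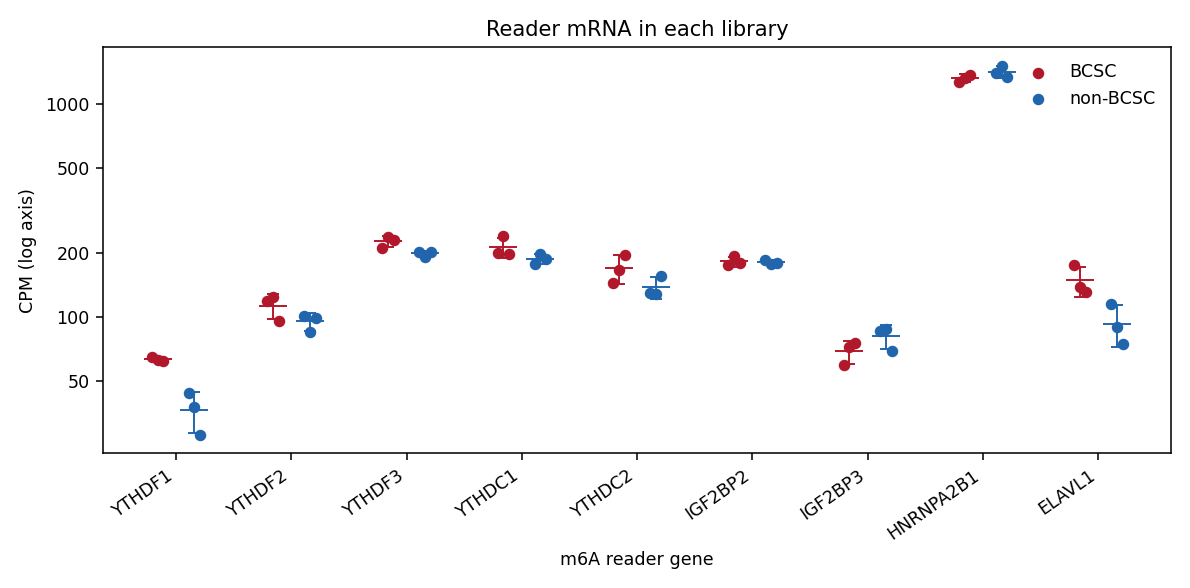
Level of 9 m6A readers in CPM (log axis) in the 3 BCSC and 3 non-BCSC libraries. Each point is a library, and the bar with whiskers gives the group mean and SD. The 3 BCSC points stand above the 3 non-BCSC points for YTHDF1, YTHDF3 and ELAVL1, and IGF2BP1, at 0 to 1.50 CPM, is not drawn.

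YTHDF1 (ENSG00000149658, chr20:61826781-61847491 on GRCh37, minus strand), a cytoplasmic reader known for promoting translation of marked mRNAs, showed the largest difference of the 9 in the edgeR test without correction. It was read at 65.0, 63.2 and 62.5 CPM in the BCSC libraries and at 44.1, 37.9 and 28.2 CPM in the non-BCSC libraries. The BCSC values were nearly equal, the non-BCSC values were spread, and the groups did not overlap. YTHDF1 was higher in BCSC by a log2 fold change of 0.79 ± 0.18 (SE), adjusted p = 0.0119 by edgeR, a ratio of means of 1.73. The samples are bulk RNA of sorted cells, so more mRNA per cell and a larger share of cells with the mRNA cannot be told apart. All of its counts fell on 1 transcript, YTHDF1-202. With each library left out in turn the adjusted p stayed between 0.0105 and 0.0434. A GC and length correction fitted on genes of 500 counts or more, added after the data were seen, lowered the log2 fold change to 0.28 (edgeR adjusted p = 0.165), and ELAVL1 then stood higher, at 0.42. With the correction fitted on all genes YTHDF1 was at 0.68 and 6 other readers stood higher.

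The YTHDF1 promoter, from RefSeq (GRCh38.p14, chr20:63216082-63216381, minus strand), is shown because YTHDF1 differed most in that test and because HIF1α, which the study follows, binds sites with the core ACGTG. The window runs from 250 bases before to 50 bases after the start, and ACGTG on either strand is in capitals. The letters on both strands overlap in 1 palindrome, CACGTG.
YTHDF1: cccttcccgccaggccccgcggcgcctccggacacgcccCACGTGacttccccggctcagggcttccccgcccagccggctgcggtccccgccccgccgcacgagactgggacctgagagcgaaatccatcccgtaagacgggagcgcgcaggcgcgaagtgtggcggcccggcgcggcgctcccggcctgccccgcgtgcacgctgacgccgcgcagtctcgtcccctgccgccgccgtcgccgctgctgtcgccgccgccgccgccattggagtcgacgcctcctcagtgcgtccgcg
The motif was searched as ACGTG on both strands in the 7 readers with an entry. It was found in YTHDF1, YTHDC1 and IGF2BP3 and not in YTHDF2, YTHDC2, IGF2BP2 or HNRNPA2B1, and 21.6% of 27305 promoter windows of the same length held it. Matches over both strands numbered 2 in YTHDF1, 3 in YTHDC1 and 5 in IGF2BP3. Binding to these sites was not measured here. The GC content of the YTHDF1 window was 77.3%, against a median of 58.3% over all windows.

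ELAVL1 (ENSG00000066044, chr19:8023457-8070543 on GRCh37, minus strand), which binds AU-rich sequences and stabilises the RNA, also rose by adjusted p. Its levels were 176, 139 and 131 CPM in BCSC and 115, 90.1 and 74.6 CPM in non-BCSC. The lowest BCSC library was above the highest non-BCSC library. The log2 fold change was 0.68 ± 0.18 (SE), adjusted p = 0.0189 by edgeR, a ratio of means of 1.60. ELAVL1-201 held 99.5% of its counts in either group. The call by adjusted p was lost without BCSC replicate 1 (log2 fold change 0.54, edgeR adjusted p = 0.0773), without non-BCSC replicate 2 (0.70, adjusted p = 0.0621) and without non-BCSC replicate 3 (0.56, adjusted p = 0.0599), and when the olfactory background was removed (0.47, adjusted p = 0.0615) or protein-coding transcripts alone were summed (0.52, adjusted p = 0.0714).

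YTHDF2 (ENSG00000198492, chr1:29063133-29096287 on GRCh37, plus strand), the reader that recruits deadenylation and shortens the life of marked RNA, did not pass the edgeR test. It was read at 120, 124 and 95.9 CPM in BCSC and at 102, 85.3 and 99.7 CPM in non-BCSC. BCSC replicate 3 lay within the non-BCSC range. The log2 fold change was 0.24 ± 0.14 (SE), adjusted p = 0.203 by edgeR, and over protein-coding transcripts alone it was −0.18 (edgeR adjusted p = 0.476). With the GC and length correction fitted on all genes it passed by adjusted p, at 0.58 (edgeR adjusted p = 0.0446), and at 0.57 with the replicate block as well (edgeR adjusted p = 0.00382). LINC00115, the RNA that the study ties to YTHDF2, was read in the same libraries at 1716, 1618 and 1120 CPM in BCSC and 5.94, 3.09 and 4.70 CPM in non-BCSC, a log2 fold change of 8.33 ± 0.27 (SE), adjusted p = 1.27e-06 by edgeR. The study picked LINC00115 from its comparison of BCSC with non-BCSC, among the lncRNAs most raised in BCSC. Its difference was thus selected to be large and is no yardstick for that in YTHDF2 mRNA. The annotated LINC00115-201 transcript, 3312 bases long, holds the m6A consensus GGACT, shown in capitals from base 1936 with its surroundings, at 1 place.
LINC00115 GGACT: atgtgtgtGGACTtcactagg
At least 1 GGACT is found in 95.0% of 1498 lncRNA transcripts of 3000 to 3600 bases, with a median of 3. Whether the site is methylated was not measured here, and other forms of the consensus were not searched. The study reports a few predicted m6A sites in LINC00115. By immunoprecipitation in PTX-resistant BCSC it also reports m6A on LINC00115 and binding of YTHDF2 to it. The count of GGACT alone does not tell how much m6A the RNA carries.

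YTHDF3, which works together with YTHDF1 and YTHDF2 in the cytoplasm, was read at 212, 239 and 231 CPM in BCSC and at 203, 192 and 203 CPM in non-BCSC. The groups did not overlap, but the step between them was small. The log2 fold change was 0.19 ± 0.10 (SE), adjusted p = 0.158 by edgeR, and it was −0.04 with the olfactory background removed. YTHDC1, the nuclear reader, was read at 201, 240 and 197 CPM in BCSC and at 178, 199 and 188 CPM in non-BCSC, and the groups overlapped. Its log2 fold change was 0.18 ± 0.11 (SE), adjusted p = 0.251 by edgeR. YTHDC2, an RNA helicase with a YTH domain known for its part in meiosis, was read at 144, 167 and 197 CPM in BCSC and at 129, 128 and 156 CPM in non-BCSC. Its groups overlapped at 1 library of each, and the log2 fold change was 0.30 ± 0.14 (SE), adjusted p = 0.135 by edgeR.

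Of the IGF2BP family, oncofetal proteins that many tumours express again, 2 of 3 members were well read in these cells. IGF2BP2 had the smallest log2 fold change of the 9 in the edgeR test and was read at 175, 194 and 179 CPM in BCSC and 185, 179 and 179 CPM in non-BCSC. Its log2 fold change was 0.01 ± 0.10 (SE), adjusted p = 0.926 by edgeR. IGF2BP3 was read at 59.5, 72.3 and 75.8 CPM in BCSC and at 86.4, 88.2 and 69.5 CPM in non-BCSC, and the groups overlapped. Its log2 fold change was −0.23 ± 0.15 (SE), adjusted p = 0.264 by edgeR. MALSU1, which overlaps IGF2BP3 on the opposite strand, had 44.6% as many counts as IGF2BP3, and since strand use in counting is not stated, reads in the shared stretch are uncertain.

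IGF2BP1 had BCSC counts of 4, 0 and 2 against 14, 17 and 6 in non-BCSC. The non-BCSC libraries were all higher, but every library was under the level that olfactory receptor genes reach. Per kb of transcript, IGF2BP1 stood at 0 to 0.819 times that background in BCSC and at 0.0448 to 0.194 times in non-BCSC. The other readers stood at 6.03 times or more in every library. IGF2BP1 mRNA was therefore not detectable above background at this depth, and no fold is given.

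HNRNPA2B1, summed over all its transcripts, was the most abundant reader and was read at 1269, 1329 and 1374 CPM in BCSC and at 1401, 1511 and 1340 CPM in non-BCSC. BCSC replicate 3 lay above non-BCSC replicate 3, so the groups overlapped. The log2 fold change was −0.10 ± 0.09 (SE), adjusted p = 0.420 by edgeR. It passed by adjusted p as lower in DESeq2 (−0.19, adjusted p = 0.0498, with the median of all genes at −0.14), with the olfactory background removed (−0.34, edgeR adjusted p = 0.0227, median 0.09), with at least 10 counts required in every library (−0.25, edgeR adjusted p = 0.0362) and with the GC and length correction fitted on genes of 500 counts or more (−0.22, edgeR adjusted p = 0.0226). It passed as higher with the correction fitted on all genes (0.83, edgeR adjusted p = 0.0169) and with that and the replicate block (0.83, edgeR adjusted p = 2.07e-06), so its direction turned with the setting. Over protein-coding transcripts alone HNRNPA2B1 had its lowest log2 fold change, −1.04 ± 0.80 (SE), adjusted p = 0.406 by edgeR. Those transcripts held 3.13% to 19.6% of its counts by library. CBX3, which starts beside HNRNPA2B1 on the opposite strand and overlaps it, had 20.6% as many counts.

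**Figure D2:**
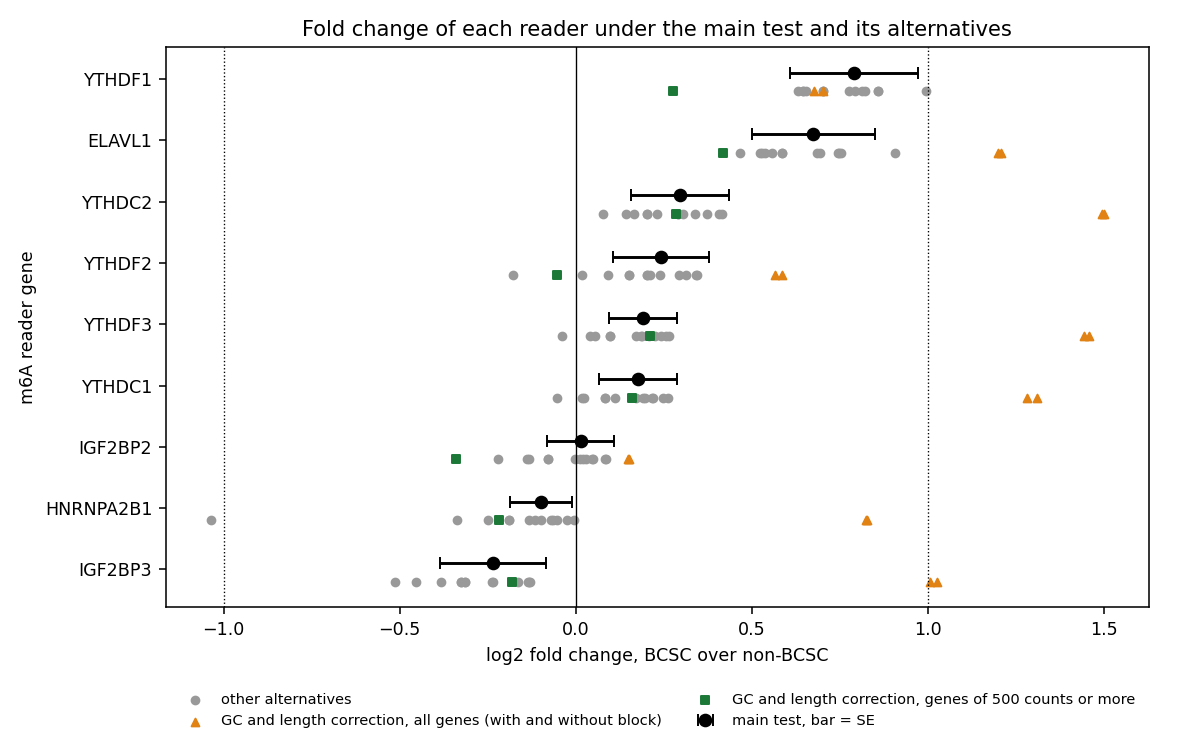
Log2 fold change (BCSC over non-BCSC) of 9 m6A readers, with its SE in the edgeR test (black) and under each alternative (grey circles, orange triangles and green squares). Dotted lines mark a log2 fold change of 1 in either direction. In the edgeR test all 9 lie within the dotted lines, and 5 lie beyond 1 with the GC and length correction fitted on all genes. HNRNPA2B1 lies at −1.04 over protein-coding transcripts alone.

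GC content moved with the comparison. With all genes split by GC content into 5 bins of equal size, the median log2 fold change ran from −0.65 in the lowest bin through −0.48, −0.25 and 0.25 to 1.01 in the highest. YTHDF1, the reader with the highest log2 fold change, also had the highest GC content of the 9, at 50.9%, and lay above the median of its bin. ELAVL1 had 46.4% and IGF2BP2, with a log2 fold change near 0, had 48.8%. The low-GC readers, YTHDF3 at 39.1%, YTHDC2 at 39.2%, IGF2BP3 at 41.1%, YTHDC1 at 41.1% and HNRNPA2B1 at 41.9%, all lay above the median of their bin. IGF2BP2 lay below the median of its bin, and YTHDF2 lay near its own (0.243 against 0.249). The bins hold all genes tested, while the 9 readers each averaged 500 counts or more. Such genes had a median log2 fold change of 0.18, against −0.05 over all genes, and their medians by bin are not given. A correction for GC content and length fitted on all genes called 5 readers higher (YTHDF3, YTHDC1, YTHDC2, IGF2BP3 and ELAVL1) where 20.8% of all genes were called higher, and moved the median of all genes to 0.27. The same correction fitted on genes of 500 counts or more called 0 readers, where 2.11% of all genes were called higher, and moved it to −0.28. The count of readers called thus turned on which genes set the correction.

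**Figure D3:**
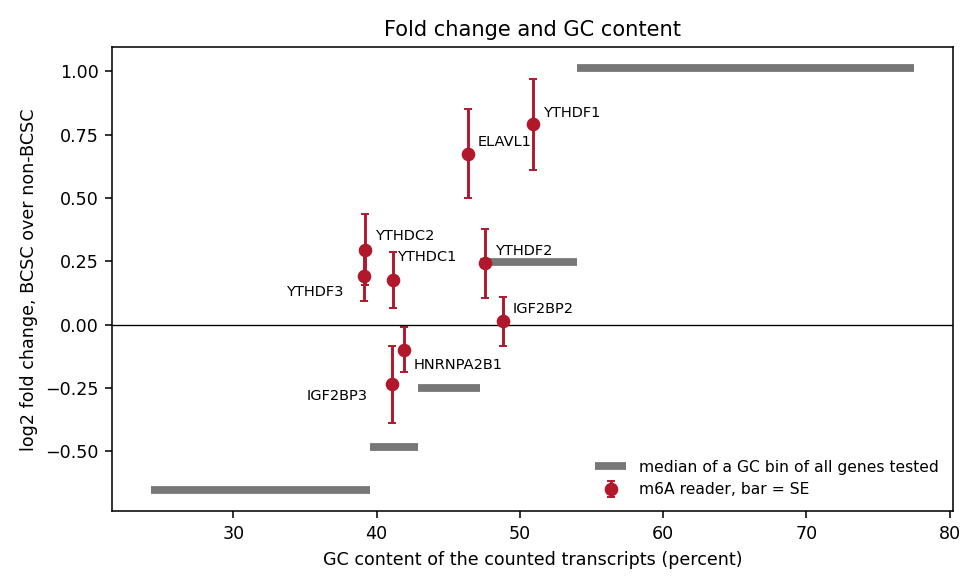
Log2 fold change (BCSC over non-BCSC) against GC content of the counted transcripts in percent. Grey bars are medians of all genes tested in 5 bins of GC content, from −0.65 to 1.01, and red points are 9 m6A readers with their SE. YTHDF1 and ELAVL1 lie highest, and 7 of the 9 have a log2 fold change above 0.

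The files hold transcripts, so the make-up of each reader's counts could be described, although counts shared among overlapping transcripts are estimates. Of 130 reader transcripts 53 were tested. None was called higher, where 0.593% of all transcripts tested were, and none lower, where 0.191% were (edgeR). At an unadjusted p under 0.05 there were 7 higher and 1 lower. The share of all transcripts at that level is not given here, so no lean is read from these counts. DESeq2 called 2 higher, IGF2BP3-218 and YTHDF3-209, and 2 lower, HNRNPA2B1-206 and YTHDF3-203, while of all transcripts tested it called 7.46% higher and 8.45% lower. IGF2BP3-218, a short coding transcript, had BCSC counts of 31, 20 and 31 and 0 in each non-BCSC library. It did not pass in edgeR (adjusted p = 0.0736). YTHDF3-209 had 300, 49 and 1694 counts in BCSC and 0 in each non-BCSC library, and did not pass either (edgeR adjusted p = 0.126). Its BCSC values differed widely among themselves. Both transcripts passed the filter on low counts through BCSC alone, so their DESeq2 calls rest on that selection. Since counts shared among overlapping transcripts are estimates, a 0 sets no limit, and no fold is given.

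Shares of a gene's counts were compared for 18 transcripts with at least 10% of their gene in either group, and 7 did not overlap between the groups. Of the shares chosen the same way over all genes tested 18.8% did not overlap, and 22.0% did not over the genes that averaged 500 counts or more. An exact two-sided permutation test of 3 against 3 libraries cannot give a p below 0.1, so no share could pass, and the lowest value adjusted over the 18 shares was 0.257. YTHDC1-201 held 60.0%, 60.4% and 62.6% of YTHDC1 counts in BCSC against 44.1%, 17.6% and 47.7% in non-BCSC (exact permutation p = 0.1). YTHDC1-207, which has a longer coding sequence of 2205 bases against 2181, held 16.7%, 26.2% and 17.8% in BCSC against 37.1%, 76.8% and 33.5% in non-BCSC (exact permutation p = 0.1). YTHDC1-202, which lacks the exon of 54 bases printed above, held 16.4%, 8.73% and 12.0% in BCSC against 10.6%, 0% and 11.0% in non-BCSC, and the groups overlapped (exact permutation p = 0.4). Among the non-BCSC libraries replicate 2 stood apart in all 3 shares.

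YTHDF2 counts lay mostly on YTHDF2-201, at 68.0%, 75.1% and 72.4% in BCSC against 86.2%, 88.6% and 74.4% in non-BCSC (exact permutation p = 0.2). The rest lay mainly on YTHDF2-206, for which no coding sequence is defined, with BCSC counts of 698, 426 and 428 against 31, 110 and 237 in non-BCSC. Its share was 28.7%, 22.4% and 27.0% in BCSC against 2.51%, 11.4% and 22.8% in non-BCSC, and the lowest BCSC share fell just below the highest non-BCSC share (exact permutation p = 0.2). YTHDF2-201 itself had a log2 fold change of 0.12 ± 0.22 (SE), adjusted p = 0.858 by edgeR. Both transcripts share the long exon of 1584 bases, over which their reads cannot be told apart.

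IGF2BP3-201 held 84.5%, 88.0% and 82.8% of IGF2BP3 counts in BCSC against 95.3%, 95.4% and 97.2% in non-BCSC (exact permutation p = 0.1). Retained-intron transcripts held 9.53% ± 1.88 in BCSC against 2.91% ± 1.31 in non-BCSC (SD, n = 3), transcripts with no coding sequence defined held 3.07% ± 0.598 against 1.11% ± 0.989, and the protein-coding IGF2BP3-218 held a mean of 2.28% against 0%. YTHDC2-201 held 86.6%, 87.4% and 79.1% in BCSC against 78.0%, 74.8% and 76.1% in non-BCSC, without overlap (exact permutation p = 0.1). IGF2BP2-202, with the exon of 129 bases, held 93.0%, 92.8% and 74.1% in BCSC against 91.2%, 80.8% and 68.5% in non-BCSC, and the groups overlapped (exact permutation p = 0.5). YTHDF3-205 held 62.4%, 95.2% and 54.2% in BCSC against 98.6%, 97.8% and 93.4% in non-BCSC (exact permutation p = 0.2).

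Retained-intron transcripts held most HNRNPA2B1 counts in 5 of 6 libraries, at 83.5%, 73.6% and 52.2% in BCSC against 71.4%, 48.5% and 67.6% in non-BCSC (exact permutation p = 0.5). HNRNPA2B1-204 held 45.6% and 39.4% of the gene's counts in BCSC replicates 1 and 2 but 7.86% in BCSC replicate 3, beside 7.75% to 11.8% in non-BCSC. HNRNPA2B1-207 held 26.3%, 21.3% and 6.82% in BCSC against 5.90%, 6.50% and 4.80% in non-BCSC, and the groups did not overlap (exact permutation p = 0.1). HNRNPA2B1-206 held 1.41%, 0.815% and 5.51% in BCSC against 11.2%, 11.3% and 13.1% in non-BCSC, without overlap (exact permutation p = 0.1). In all of these BCSC replicate 3 lay nearer to the non-BCSC libraries than the other BCSC libraries did. Transcripts that code B1 held 8.99%, 11.5% and 15.0% of HNRNPA2B1 counts in BCSC against 11.3%, 21.6% and 9.17% in non-BCSC (exact permutation p = 0.8). Of the counts on transcripts that code B1 or A2, B1 took 54.4%, 43.6% and 31.4% in BCSC against 39.4%, 41.9% and 28.3% in non-BCSC (exact permutation p = 0.4). The share of counts on transcripts that code B1 thus showed no difference larger than the spread between libraries. Use of the B1 exon itself was not measured, since retained-intron transcripts were assigned to neither form. Some transcripts that code B1, such as HNRNPA2B1-246, are annotated to nonsense-mediated decay.

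**Figure D4:**
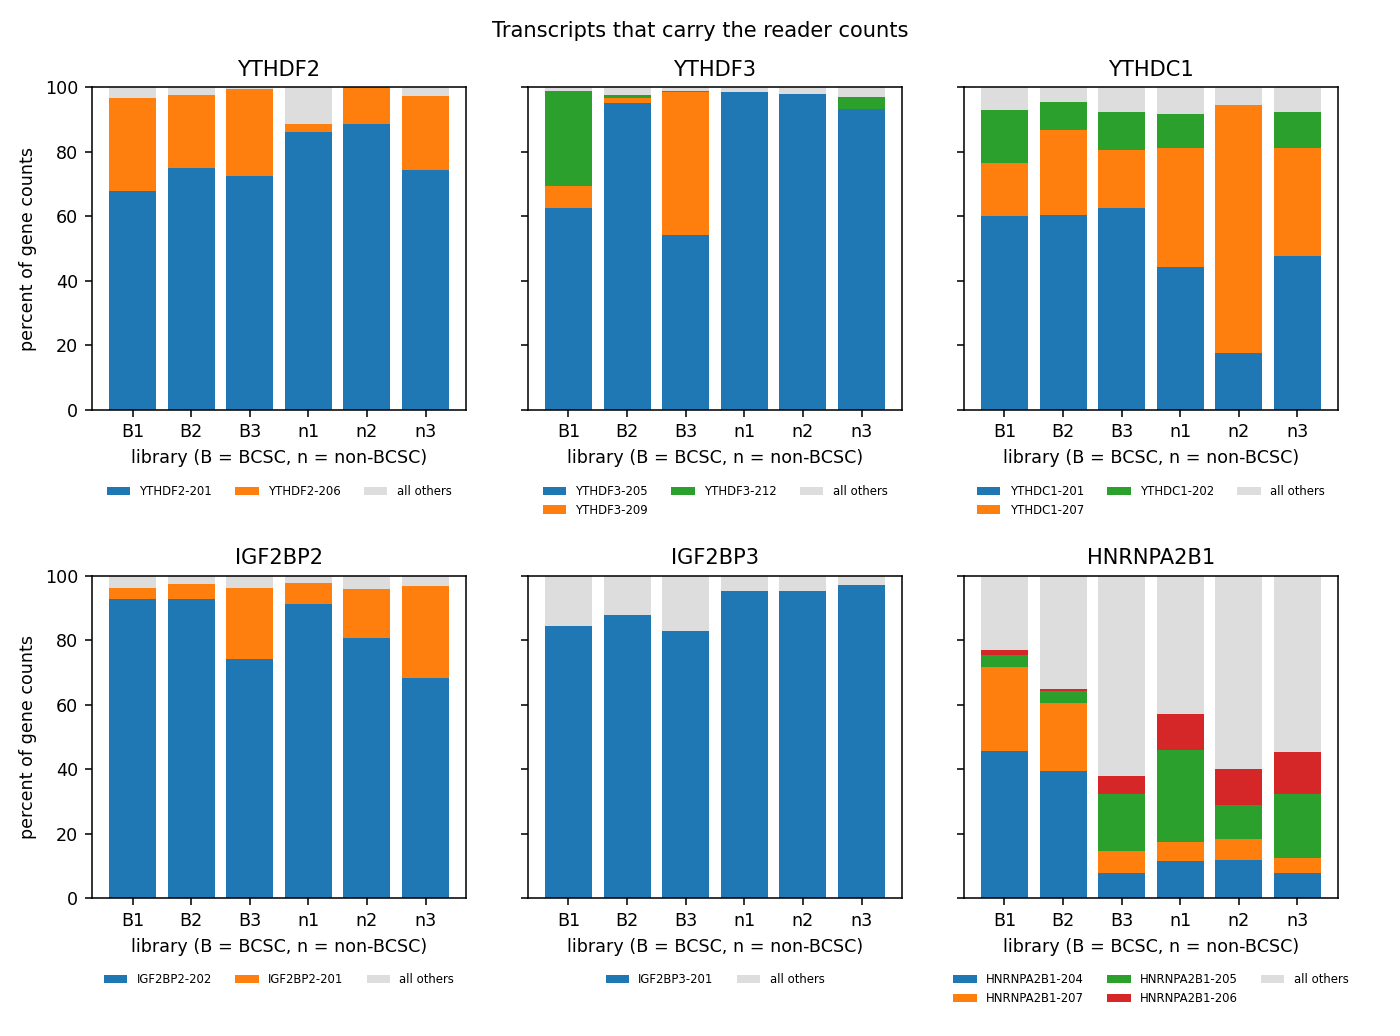
Percent of each gene's counts on its leading transcripts in the 3 BCSC (B1 to B3) and 3 non-BCSC (n1 to n3) libraries, for 6 m6A readers. Colours are transcripts with at least 10% of the counts in either group and grey is all others. YTHDC1-201 (blue) takes 60.0% to 62.6% in BCSC and 17.6% to 47.7% in non-BCSC, and HNRNPA2B1-204 takes 7.86% in BCSC replicate 3 beside 45.6% and 39.4% in the other BCSC libraries.

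Beyond the readers, a list of 40 m6A pathway genes was examined, of which 37 were tested, 7 were called higher, against 8.85% of all genes, and 2 lower, against 11.3%. By adjusted p alone 13 were higher, against 15.3% of all genes and 30.0% of genes that averaged 500 counts or more, and 3 were lower, against 14.6% and 11.9%. The median log2 fold change of the list was 0.10. The GC and length correction fitted on genes of 500 counts or more left 1 called higher, so most of the 7 calls were not kept under it. Over protein-coding transcripts alone 4 were called higher. Which of the calls named below were kept is not given here. Of 11 writers 1 was called, RBM15B, an adaptor that guides the complex, with a log2 fold change of 1.14 ± 0.29 (SE), adjusted p = 0.0168 by edgeR. By adjusted p alone 4 writers were higher and 0 lower. Beside RBM15B these were RBM15 (0.98 ± 0.18 (SE), adjusted p = 0.00481 by edgeR), WTAP (0.52 ± 0.11 (SE), adjusted p = 0.0106 by edgeR) and CBLL1 (0.38 ± 0.11 (SE), adjusted p = 0.0299 by edgeR). Neither gene of the catalytic pair passed the test, with METTL3 at −0.09 ± 0.22 (SE), adjusted p = 0.780 by edgeR and METTL14 at −0.18 ± 0.14 (SE), adjusted p = 0.335 by edgeR. Of the erasers, ALKBH5 was read at 130, 86.8 and 101 CPM in BCSC and 51.5, 55.7 and 26.5 CPM in non-BCSC, a log2 fold change of 1.25 ± 0.26 (SE), adjusted p = 0.00891 by edgeR. FTO had a log2 fold change of −0.33 ± 0.11 (SE), adjusted p = 0.0511 by edgeR.

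Of the 12 other proteins described as readers, 11 were tested, 2 were called higher and 1 lower. PRRC2A rose by a log2 fold change of 1.84 ± 0.25 (SE), adjusted p = 0.00119 by edgeR and FXR2 by 1.39 ± 0.30 (SE), adjusted p = 0.00941 by edgeR, while its paralog FXR1 fell by adjusted p alone (−0.57 ± 0.10 (SE), adjusted p = 0.00484 by edgeR). The gene called lower, ELAVL4, a neuronal relative of ELAVL1, had BCSC counts of only 8, 0 and 4 against 21, 36 and 90 in non-BCSC. With the olfactory background removed 0 genes of the list were called lower. Of the decay partners of YTHDF2, UPF1 rose by a log2 fold change of 1.67 ± 0.26 (SE), adjusted p = 0.00235 by edgeR and CNOT1, the scaffold of the deadenylase complex, had 0.21 ± 0.11 (SE), adjusted p = 0.168 by edgeR. RIDA, the other decay partner on the list, had −0.48 ± 0.41 (SE), adjusted p = 0.401 by edgeR.

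Of 8 RNAs known to be bound by IGF2BP proteins, 7 were tested, 1 was called higher and 0 lower. HMGA2, a chromatin protein, was read at 237, 263 and 277 CPM in BCSC and 55.2, 74.3 and 66.7 CPM in non-BCSC, a log2 fold change of 1.98 ± 0.13 (SE), adjusted p = 6.05e-05 by edgeR. CD44 (0.86 ± 0.11 (SE), adjusted p = 0.00108 by edgeR) and ACTB (0.35 ± 0.12 (SE), adjusted p = 0.0466 by edgeR) were higher by adjusted p alone. MYC had a log2 fold change of 0.16 ± 0.13 (SE), adjusted p = 0.396 by edgeR. Of the let-7 axis, LIN28B was called lower on BCSC counts of 14, 0 and 24 against 64, 48 and 121 in non-BCSC, and HMGA1 was called higher (1.37 ± 0.30 (SE), adjusted p = 0.00997 by edgeR).

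**Figure D5:**
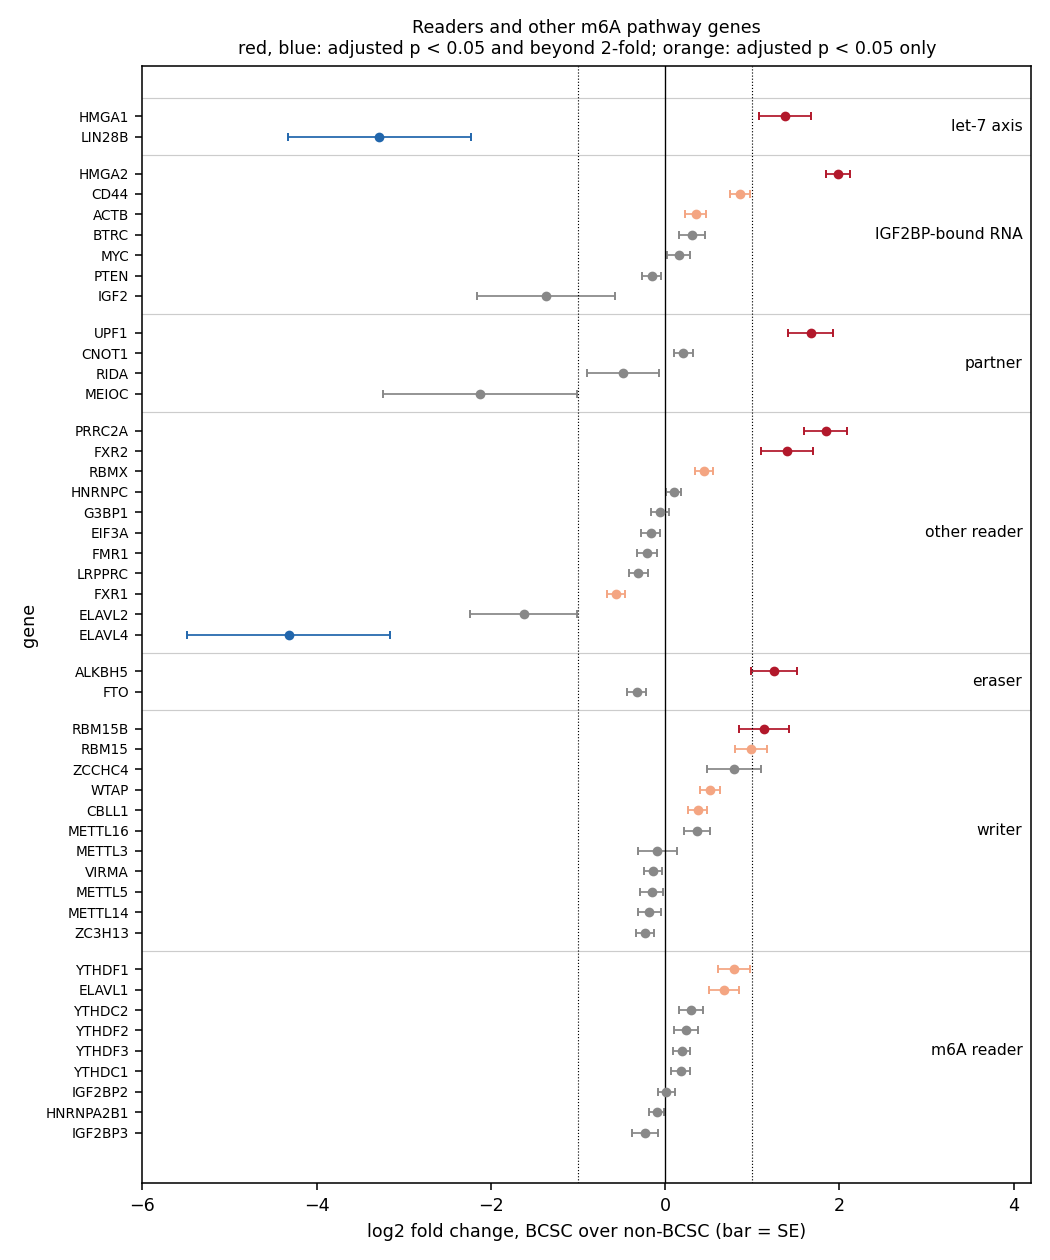
Log2 fold change (BCSC over non-BCSC) with SE for the 9 m6A readers tested and the 37 other pathway genes tested, grouped by role. Red and blue mark genes called higher and lower, orange an adjusted p under 0.05 alone, and dotted lines a log2 fold change of 1 in either direction. No reader of the 10 is red or blue, and 7 pathway genes are red.

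Across the 6 libraries, the genes whose log2 CPM was most like that of YTHDF2 were SRA1 (Pearson r = 0.998), KNSTRN (0.992), MSRB3 (0.989), ZFAND2B (0.986) and SPCS2 (0.985), among 12575 genes that averaged 50 counts or more. With so few libraries 26 genes had an r above 0.95, so these are a description over points that share library and group. The other readers were less like it, from ELAVL1 at 0.69 and YTHDF3 at 0.62 to IGF2BP3 at −0.70 and HNRNPA2B1 at −0.85. Most like IGF2BP3 were RAB10 (0.989), APPBP2 (0.989), SLC39A10 (0.987), ENSG00000287811 (0.986) and TASOR (0.982), and HNRNPA2B1 had an r of 0.92 with it, at rank 95.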

How the data were processed

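Estimated counts of reads per Ensembl transcript, in whole numbers and not normalized, are the values the authors deposited for 6 libraries. The labels' processing notes name hg38, HISAT2, featureCounts and DESeq2, while the study's methods name hg19. The annotation release and the use of strand in counting are not given in the sources used here. Transcript identifiers were matched to GENCODE 44 on GRCh37 (249787 of 252618, 98.9%, with 99.7% to 99.8% of counts) and counts were summed per gene. They were whole already, so no rounding was needed.

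BCSC and non-BCSC (n = 3 each, from the sample titles) were compared in edgeR 4.0.16 (R 4.3.3) with TMM, filterByExpr and a robust quasi-likelihood fit on group. P-values were adjusted by Benjamini-Hochberg over 20442 genes or 46176 transcripts. Called means an adjusted p under 0.05 with the log2 fold change beyond 1. CPM use TMM library sizes, and values are means ± SD. Shares were tested by exact two-sided permutation over libraries. Alternatives used DESeq2 1.42.0, RLE factors, other filters, leave-one-out, a replicate block, GC and length correction (loess, span 0.3), removal of the olfactory receptor level per kb, and protein-coding transcripts alone.

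The members, lists and named genes were chosen with earlier results of these data known. Named were all 10 readers, pathway genes where a result turned on them, transcripts with at least 10% of a reader's counts or called, and the 5 genes most correlated with YTHDF2 and with IGF2BP3. Promoters came from RefSeq (GRCh38.p14, 7 of 10 readers matched).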

Additional observations from a re-analysis of the deposited data

How the results depend on the processing

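The count of readers called higher, 0, was kept under normalization, filter, DESeq2, replicate block and background alternatives and with protein-coding transcripts alone, and with each library left out. It was 5 with the GC and length correction, 5 with the replicate block and that correction, and 2 with no minimum fold. The readers called lower stayed at 0 under all alternatives run. Pathway genes called higher were 12 with the GC and length correction, 11 with the replicate block and that correction, 1 with the correction fitted on genes of 500 counts or more (added after the data were seen), 4 over protein-coding transcripts alone and 13 with no minimum fold. Pathway genes called lower were 4 with the replicate block, 1 with the block and GC and length correction, 0 with the background removed, 1 over protein-coding transcripts alone, and 0 to 3 with a library left out. Reader transcripts called higher and lower were 2 and 2 by DESeq2, and 4 and 1 at an unadjusted p with the minimum fold. For the unadjusted p no share over all transcripts is given, so these counts are not read as a lean. The sign of the log2 fold change turned for YTHDF2 (−0.052 with the GC and length correction on genes of 500 counts or more, −0.18 over protein-coding transcripts), YTHDF3 (−0.038) and YTHDC1 (−0.054) with the background removed, IGF2BP3 (1.01, and 1.03 with the block) and HNRNPA2B1 (0.83, and 0.83 with the block) with the GC and length correction. IGF2BP2, near 0, turned to −0.078 with RLE factors, −0.078 in DESeq2, −0.14 with at least 10 counts in every library, −0.34 with the correction on genes of 500 counts or more, −0.22 with the background removed and −0.13 over protein-coding transcripts, and ran from −0.00078 to 0.084 with a library left out. The difference in B1-coding share ran from −4.58 to 1.63 percentage points with a library left out, that of ELAVL1-201 from −0.20 to 0.34 and that of YTHDF3-212 from −0.73 to 13.9. The cause of these changes was not tested.

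Same-numbered libraries correlated at 0.18, 0.01 and 0.22 in their deviations from the group means, and not every library correlated best with its own number, so the numbers were not taken to pair the samples. With the replicate block the readers called stayed at 0 and YTHDC2 passed by adjusted p (edgeR adjusted p = 0.0450). Without a filter on low counts the median log2 fold change of all genes was −1.02, and it was −0.14 with RLE factors.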

Other observations

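Processed pseudogenes named after the readers took few counts. YTHDF1P1 had 0.830% as many counts as YTHDF1 over the 6 libraries, YTHDF2P1 had 0.371% as many as YTHDF2, and YTHDF3P1 had 0. Against the olfactory receptor level per kb of transcript, YTHDF2 stood at 187 to 1025 times in BCSC and 26.8 to 67.9 times in non-BCSC, and YTHDF1 at 102 to 393 and 6.03 to 20.2 times.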
